A study of Mus musculus with 20 samples.

Results

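The genes described here belong to the cytochrome b5 system: Cyb5r3, Cyb5r1, Cyb5r4 and Cyb5b, 4 of the 23284 genes measured in mouse embryonic stem cells (ESCs). They were listed by name, and Cyb5r3 was chosen with its Tet2 and Tet2dRBD values already known, so those values are given as a description with no test. All 4 passed the filter on low counts and lie among the 13710 genes tested. RNA bound to tagged Tet proteins was sequenced (RNA immunoprecipitation, RIP-Seq) next to total RNA of the cells, called input. The question was which transcripts are held by Tet1 or Tet2, dioxygenases that oxidise methylcytosine, and what remains once the RNA-binding domain of Tet2 is gone.

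The 20 libraries came from 3 knock-in lines kept in serum medium with leukemia inhibitory factor, without further treatment. Every line carried a Flag, HA and Twin-Strep tag at the C terminus of the endogenous protein. In the Tet1 line (Tet1-KI) the tag sat on Tet1, with 2 IP and 2 input libraries. In the Tet2 line (Tet2-KI) it sat on Tet2 and in the Tet2dRBD line (Tet2dRBD-KI) on Tet2 lacking the RNA-binding domain, with 4 IP and 4 input libraries in each. The lines were grown from picked clones, so line and clone cannot be told apart. An anti-Flag antibody was used in every IP. The libraries held 21078995 to 37576638 estimated counts, with a median of 25517290. The numbering of the deposited data places replicate 1 of the Tet2 and Tet2dRBD lines in a separate set and replicate 2 in another. Replicates 3 and 4 shared a set with all Tet1 libraries. In the inputs, 8 stem cell markers (Pou5f1, Nanog and others) summed to 13540 to 17340 TPM (a share of all transcripts, corrected for transcript length). The 8 markers of other cells summed to 35.49 to 37.64 TPM in the Tet1 inputs. The sums were 44.26 to 83.85 TPM in the Tet2 and 66.83 to 116.4 TPM in the Tet2dRBD inputs. Medians over the inputs were 14.39 (Gata4), 8.78 (Gata6) and 5.415 TPM (Sox17) for those of the endoderm. The rest had 27.68 (Thy1), 5.935 (Col1a1), 1.42 (Nes), 0.105 (Pax6) and 0.1 TPM (T). The part of these markers in the results was not tested. Total Tet1 and Tet2 mRNA was low (medians of 11.86 and 6.125 TPM in the inputs) and does not check the domain deletion.

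Cytochrome b5 is a small heme protein that passes single electrons to membrane enzymes. Its electrons come from NADH through flavin-containing cytochrome b5 reductases. The pair of proteins serves fatty acid desaturation, sterol synthesis and other oxidations at the endoplasmic reticulum and the outer mitochondrial membrane. Cyb5r3 encodes the main reductase, which in red blood cells keeps hemoglobin reduced. Cyb5r1 encodes a related membrane-bound reductase, Cyb5r4 a fusion of a b5-like and a reductase domain, and Cyb5b the b5 form of the outer mitochondrial membrane. A second b5 form, listed as Cyb5 (now Cyb5a), resides at the endoplasmic reticulum and is not among the 4 genes.

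In the annotation of mouse build mm9, Cyb5r3 lies on the minus strand at chr15:82983924-83003022. Cyb5r1 (chr1:136302358-136308317), Cyb5r4 (chr9:86916849-86972609) and Cyb5b (chr8:109674561-109711370) lie on the plus strand. All are protein-coding and overlap 0 other annotated genes. Because the study examined UC-rich sequence, a coding stretch of 30 bases of each gene is shown, 5′ to 3′, as DNA of the mm9 genome. It is the most pyrimidine-rich within a single coding exon, with any tie going to the lowest genome position. Stretches across exon junctions were not searched. Capitals mark the longest unbroken run of C and T in the stretch shown.
Cyb5r3: tttgCCCTCCCTTCaccccagcacatcctg
Cyb5r1: TTCCgctttgccttgcccaccgcccaccac
Cyb5r4: cccgtgtctgaTTCCTTactctcagatttt
Cyb5b: ttcttataggTTTCTTgtatcgtcacttct
The Cyb5r3 stretch lies in coding exon 3 of 9 (chr15:82992675-82992704) and has 23 C or T bases with a run of 10. The Cyb5r1 stretch (exon 3 of 9, chr1:136303200-136303229) also has 23, but its longest run is 4. Those of Cyb5r4 (exon 12 of 16, chr9:86952003-86952032) and Cyb5b (exon 5 of 5, chr8:109707516-109707545) have 22 each, with a run of 6.

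Over the whole mRNA, Cyb5r3 was not rich in pyrimidines: C and U made up 48.4% of its 2030 bases, above 35.0% of the 13109 tested genes that could be matched to a coding transcript. The median gene had 49.3%. The shares were 49.9% in Cyb5r1, 48.7% in Cyb5r4 and 51.2% in Cyb5b. The pentamer UCCUC, searched on the sense strand only, was found in 92.7% of the matched mRNAs and 0 times in that of Cyb5r3. It was found 2 times in Cyb5r1, 1 time in Cyb5r4 and 7 times in Cyb5b (1.63 per kilobase against a median of 1.44). Of the Cyb5b matches, 2 lie in the coding sequence and 5 in the 3′ UTR. A match of each of these 3 genes that lies within a single exon is shown with 10 bases on either side, UCCUC (as TCCTC) in capitals.
Cyb5r1: agtcaggcccTCCTCcatagaccac
Cyb5r4: gcagcgcgtcTCCTCccaggggcgc
Cyb5b: tgacagcaaaTCCTCctgaggagac
The Cyb5r1 site (chr1:136302505-136302529) and the Cyb5r4 site (chr9:86917058-86917082) are in the 5′ UTR, and the Cyb5b site (chr8:109707550-109707574) spans the end of the coding sequence. These are letter matches and not measured binding sites, and introns were not searched. Each gene has a single RefSeq transcript in the deposited tables, so the tables do not resolve isoforms. The Cyb5r1 transcript searched has 1837 bases, against 1626 in the deposited one. Its C and U share, its UCCUC count and the 5′ UTR site shown may therefore not hold for the deposited transcript.

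Cyb5r3 mRNA was enriched in the Tet2 IP and in neither of the other IPs. In the Tet2 line its level was 710.89, 518.01, 342.96 and 355.91 TPM in IP replicates 1 to 4, against 186.71, 213.72, 167.85 and 172.19 TPM in the inputs. The lowest IP library lay above the highest input. In the Tet2dRBD line the IP levels were 129.25, 160.69, 119.46 and 119.99 TPM and the input levels 179.95, 175.64, 148.74 and 152.84 TPM. Here each IP library lay below its own input, although the ranges overlapped. In the Tet1 line the IP levels were 157.49 and 147.74 TPM and the input levels 151.41 and 158.79 TPM. The Tet1 groups overlapped, and the pairs went opposite ways.

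**Figure D1:**
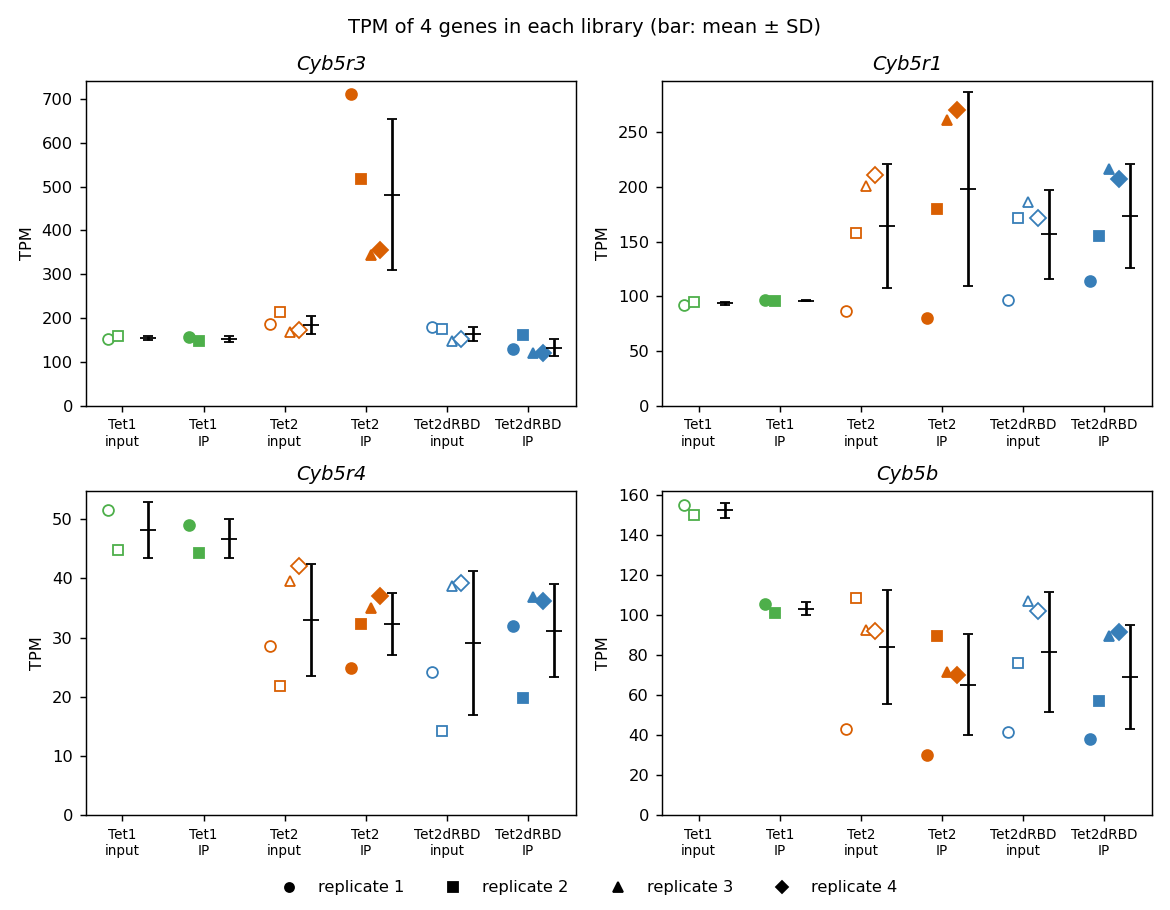
TPM (linear axis from 0) of Cyb5r3, Cyb5r1, Cyb5r4 and Cyb5b in each of the 20 libraries, by line and library type; open symbols are inputs, filled symbols IPs, symbol shape the replicate number, and bars the mean ± SD. The Cyb5r3 IP libraries of the Tet2 line lie between 342.96 and 710.89 TPM, above every other library of that gene, while the groups of the Tet2 and Tet2dRBD lines overlap for the other 3 genes.

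On the log2 scale of TPM + 1, the IP over input ratio of Cyb5r3 was 1.92, 1.27, 1.03 and 1.04 in the Tet2 pairs (mean 1.32 ± 0.42, SD, n = 4). Replicate 1 was the highest and replicates 3 and 4 were nearly equal. Without replicate 1 the mean was 1.11. In the Tet2dRBD pairs the ratio was -0.47, -0.13, -0.31 and -0.35 (mean -0.32 ± 0.14, SD, n = 4). In the Tet1 pairs it was 0.06 and -0.10 (mean -0.02 ± 0.11, SD, n = 2). Thus all 4 Tet2 ratios were above 0 and all 4 Tet2dRBD ratios below 0.

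These TPM ratios have no fixed zero: the median ratio over all tested genes was 0.08 in the Tet1, 0.23 in the Tet2 and 0.19 in the Tet2dRBD line. After TMM scaling (trimmed mean of M values, which centres the bulk of genes) it was between -0.02 and 0.01. On that scale, in the edgeR fit, which compares each IP with its own input, the Cyb5r3 ratio was 1.00 (SE 0.15) in the Tet2 and -0.59 (SE 0.15) in the Tet2dRBD line. Both signs were therefore the same on either scale, with the Tet2dRBD value further below 0 after TMM scaling.

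**Figure D2:**
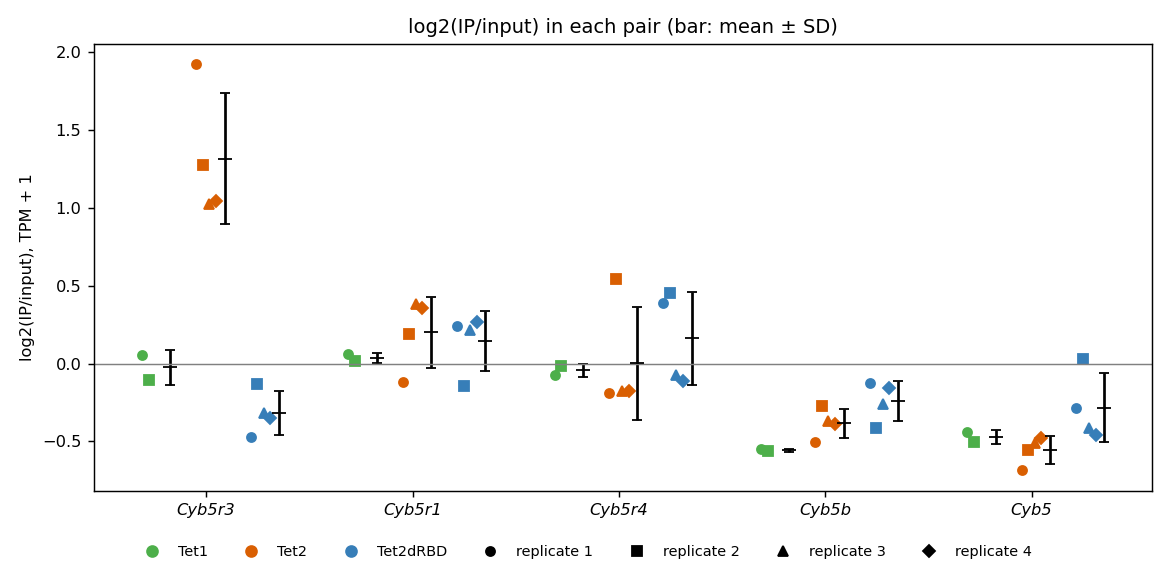
log2(IP/input), from TPM + 1, in each of the 10 pairs for the 4 genes and for Cyb5; colour gives the line, shape the replicate number, and bars the mean ± SD. The Cyb5r3 ratios of the Tet2 line (1.03 to 1.92) lie apart from all others, and the Cyb5b ratios lie below 0 in every pair.

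At matched replicate numbers, the Tet2 minus Tet2dRBD difference of the Cyb5r3 log2 ratio was 2.40, 1.40, 1.34 and 1.39 (mean 1.63 ± 0.51, SD, n = 4), a 3.10-fold mean difference. It was above 0 at 4 of 4 numbers, 1.38 without replicate 1, and 1.60 (SE 0.21) in the edgeR fit. The IP libraries carried it: Tet2 IP over Tet2dRBD IP was 1.80 ± 0.44 on the log2 scale, whereas Tet2 input over Tet2dRBD input was 0.17 ± 0.09. The input part was above 0 at each number (0.05 to 0.28) and enters the difference with a minus sign. Over all 13710 genes, edgeR called 3 for this difference (0.0219%, either direction, adjusted p under 0.05). All Tet2 ratios lay above all Tet2dRBD ratios for 1.3% of genes and below them for 1.11%. Cyb5r3 was the only 1 of the 4 genes with such a separation, upward, and this is the contrast it was chosen on.

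**Figure D3:**
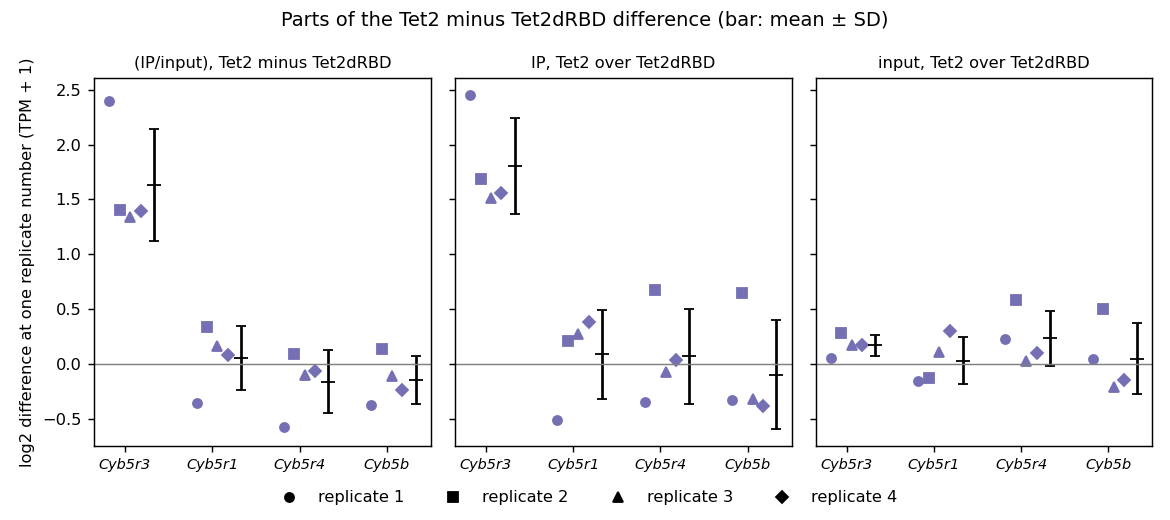
Tet2 against Tet2dRBD on the log2 scale (TPM + 1) at each replicate number for the 4 genes: the difference of the IP over input ratios (left), the IP libraries alone (middle) and the inputs alone (right), with mean ± SD. For Cyb5r3 the IP part averages 1.80 and the input part 0.17, whereas the left-hand differences of the other 3 genes average between -0.16 and 0.06. The input part of Cyb5r4 is also above 0 at every number (mean 0.24).

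The reductase paralogs did not share this pattern. Cyb5r1 had 79.91, 180.22, 261.22 and 270.79 TPM in the Tet2 IPs and 86.61, 158.02, 200.53 and 211.4 TPM in their inputs. The Tet2dRBD IPs had 114.37, 155.48, 216.35 and 207.43 TPM, against 96.68, 172.16, 186.16 and 171.82 TPM in the inputs. Libraries of replicate 1 were the lowest in both lines and in both IP and input, and the IP and input groups overlapped. The log2 ratios averaged 0.20 ± 0.23 (SD, n = 4) for Tet2 and 0.15 ± 0.20 (SD, n = 4) for Tet2dRBD. Their difference was 0.06 ± 0.29 and above 0 at 3 of 4 numbers. On the TMM scale both line values were below 0 (-0.11, SE 0.12, and -0.13, SE 0.12), so no direction can be given for Cyb5r1 in either line.

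Cyb5r4, the b5 and reductase fusion, was the least abundant of the 4. Its Tet2 IPs had 24.94, 32.28, 34.92 and 37.02 TPM and the inputs 28.5, 21.84, 39.52 and 42.01 TPM. The Tet2dRBD IPs had 31.97, 19.81, 36.8 and 36.17 TPM and the inputs 24.18, 14.2, 38.73 and 39.22 TPM. In replicate 2 the IP was above the input in both lines (log2 ratios of 0.54 and 0.45), and in replicates 3 and 4 it was slightly below in both. Replicate 1 was below in the Tet2 (-0.19) and above in the Tet2dRBD line (0.39). The mean ratio was 0.00 ± 0.36 (SD, n = 4) for Tet2 and 0.16 ± 0.30 (SD, n = 4) for Tet2dRBD, and the difference of -0.16 ± 0.29 was within its spread.

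Cyb5b, the mitochondrial b5 form, was below input in every pair of every line. In the Tet2 line the IPs had 30.09, 89.49, 71.67 and 69.83 TPM against 43.1, 108.36, 92.64 and 91.83 TPM in the inputs. In the Tet2dRBD line they had 38.1, 56.93, 89.37 and 91.5 TPM against 41.7, 76.15, 107.08 and 101.96 TPM. Each IP was below its own input, but the groups overlapped because the replicate sets differed more than IP and input did. The log2 ratios averaged -0.38 ± 0.10 (SD, n = 4) for Tet2 and -0.24 ± 0.13 (SD, n = 4) for Tet2dRBD. The difference between the lines was -0.15 ± 0.22. In the Tet1 line, where the IPs had 105.42 and 100.89 TPM and the inputs 154.75 and 149.65 TPM, the groups did not overlap.

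IPs above or below input in every pair were common over the genome, so such counts say little alone. In the Tet2 line 46.5% of tested genes were above input in every pair and 11.9% below; for the 4 genes the counts were 1 (Cyb5r3) and 1 (Cyb5b). In the Tet2dRBD line the shares were 31.8% and 8.56%, and the counts 0 and 2 (Cyb5r3 and Cyb5b). In the Tet1 line, with 2 pairs, they were 50.9% and 30.1%, with 1 gene above (Cyb5r1) and 2 below (Cyb5r4 and Cyb5b).

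The Tet1 line was not part of the contrast that chose Cyb5r3, and there the 4 genes were tested. Earlier results of these data were known when the members were chosen, and the values set out for the members included their Tet1 ratios. The p-values of the 4 genes are therefore descriptive and give no independent support. Cyb5b was lower in the Tet1 IP than in input (log2 ratio -0.71, SE 0.13, adjusted p = 0.0213, edgeR quasi-likelihood test over all genes). It was lower in 2 of 2 pairs, by -0.55 and -0.56 on the TPM scale. The call was lost without either Tet1 pair (adjusted p = 0.287 without replicate 1 and 0.566 without replicate 2). Over all tested genes edgeR called 2.72% higher and 3.18% lower in the Tet1 IP. Cyb5r3 did not pass (-0.17, SE 0.21, adjusted p = 0.675), nor did Cyb5r1 (-0.11, SE 0.17, adjusted p = 0.752) or Cyb5r4 (-0.19, SE 0.21, adjusted p = 0.629). The Cyb5r1 and Cyb5r4 levels of the Tet1 line were 96.36 and 95.78 TPM (IP) against 92.33 and 94.79 TPM (input), and 48.98 and 44.34 TPM against 51.49 and 44.78 TPM. With 2 pairs these values do not show that the IP equals input. Replicates were not stated to be separate cultures in the labels, so the p-values measure the spread between these libraries. That spread was estimated over all 20 libraries and not from the 2 Tet1 pairs alone.

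TPM is per transcript length, so levels can be set side by side between genes. Over the 10 inputs Cyb5r3 was the steadiest, from 148.74 to 213.72 TPM (median 170.0, highest over lowest 1.44). Cyb5r1 ranged from 86.61 to 211.4 TPM (2.44), Cyb5b from 41.7 to 154.75 TPM (3.71) and Cyb5r4 from 14.2 to 51.49 TPM (3.63). The estimated counts behind these input levels were 4705 to 10395 per library for Cyb5r3 and no lower than 906 for any of the 4. Counting error is therefore small beside the spread between replicates in the Tet2 and Tet2dRBD lines. In the Tet1 line the 2 pairs lay so close (SD of the log2 ratio 0.01 for Cyb5b) that this cannot be said.

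The order of group means differed between genes. For Cyb5r3 it ran from the Tet2 IP (482 ± 172 TPM, SD) through the Tet2 (185 ± 20.7), Tet2dRBD (164 ± 15.8) and Tet1 inputs (155 ± 5.22) to the Tet1 (153 ± 6.89) and Tet2dRBD IPs (132 ± 19.4). Only the step from the Tet2 IP to the next group had ranges that did not overlap. For Cyb5r1 the Tet2 and Tet2dRBD groups, with means of 157 to 198 TPM, overlapped with each other. The Tet1 IP (96.1 ± 0.410) and input (93.6 ± 1.74) had the lowest means, and their ranges overlapped neither with each other nor with the Tet2dRBD input just above them. Both lay within the wider ranges of the Tet2 input (86.61 to 211.4 TPM) and the Tet2 IP (79.91 to 270.79 TPM). For Cyb5r4 the Tet1 input (48.1 ± 4.75) and IP (46.7 ± 3.28) stood above the other groups, whose means lay between 29.08 and 32.97 TPM. For Cyb5b the Tet1 input (152 ± 3.61) was the highest and did not overlap with the Tet1 IP (103 ± 3.20), and the remaining groups overlapped. The Tet1 inputs thus lay below the input means of the other lines for Cyb5r1 and above them for Cyb5b and Cyb5r4. The direction was the same against replicates 3 and 4 of the Tet2 and Tet2dRBD lines, which share the Tet1 library set. Their inputs had 171.82 to 211.4 TPM of Cyb5r1, 91.83 to 107.08 of Cyb5b and 38.73 to 42.01 of Cyb5r4. The part of the set was not tested, and line and clone cannot be told apart. In bulk RNA fewer cells of a type and less RNA per cell cannot be told apart.

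The genes whose log2(IP/input) followed Cyb5r3 most closely over the 10 pairs were Sec22b (Pearson r = 0.99), Atp6v1e1 (0.974), Tbrg1 (0.973), Slc44a4 (0.965) and Maea (0.961). They were ranked among 6996 genes with a mean TPM of at least 10 over all 20 libraries, IPs included. Slc44a4 had a mean input of 8.155 TPM, so it passed this filter only through its IP libraries. Sec22b encodes a SNARE protein of transport between the endoplasmic reticulum and the Golgi. Atp6v1e1 encodes a subunit of the vacuolar proton pump, and Maea a subunit of a ubiquitin ligase. Sec22b had mean log2 ratios of 1.84 ± 0.47 in the Tet2, -0.20 ± 0.13 in the Tet2dRBD and 0.25 ± 0.20 in the Tet1 line, so it and Cyb5r3 were both below input in the Tet2dRBD line on the TPM scale. The remaining 4 genes had Tet2dRBD means of 0.16 to 0.72. Since the Tet2 pairs lie apart from the rest, these correlations rest largely on that gap, and the pairs share libraries and depth. For the other members r with Cyb5r3 was -0.04 (Cyb5r1), -0.20 (Cyb5r4) and -0.34 (Cyb5b), placing them 4288th, 5309th and 5915th.

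**Figure D4:**
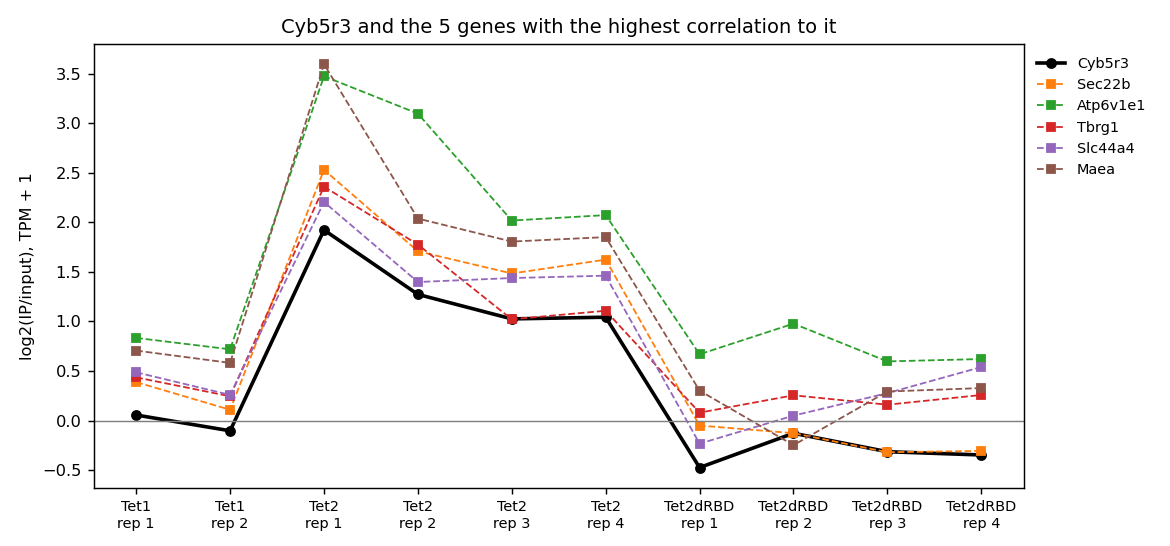
log2(IP/input), from TPM + 1, of Cyb5r3 and of the 5 genes most correlated with it over the 10 pairs; lines only join the points of a gene, and replicate numbers have no order. All 6 genes are highest in the 4 Tet2 pairs, and Cyb5r3 is the lowest or nearly the lowest of them in most pairs.

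The rest of the system was read from a list of 27 further genes, of which 25 were tested. Of these, edgeR called 2 higher and 10 lower in the Tet2 IP, where 14.6% of all genes were called higher and 18.5% lower. In the Tet2dRBD IP it called 0 higher and 9 lower, beside 7.4% and 12.1% of all genes. In the Tet1 IP it called 0 higher and 2 lower, beside 2.72% and 3.18%. At an unadjusted p under 0.05 the higher counts were 2 in the Tet2dRBD and 1 in the Tet1 IP, and DESeq2 called 2 and 1. The median fitted log2 ratio of the 25 genes was -0.32, -0.24 and -0.34 in the Tet2, Tet2dRBD and Tet1 lines, against 0.00, -0.02 and -0.04 over all genes. On the TPM scale, where all genes shift upward, limma called 4 higher and 4 lower for Tet2 and 3 higher and 2 lower for Tet2dRBD. Cyb5, Cmah, Sc4mol and Scd3 were the lower calls for Tet2, and Cyb5 and Cmah for Tet2dRBD. The list medians there were 0.00 and 0.03 beside 0.23 and 0.19 over all genes.

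Both electron carriers had ratios below 0 in the fits of all 3 lines. Cyb5, the carrier of the endoplasmic reticulum, had the second highest mean input level of the list (236.5 TPM). It fell by 0.88 (SE 0.13, adjusted p = 0.000898) in the Tet2 IP and by 0.56 (SE 0.13, adjusted p = 0.0153) in the Tet2dRBD IP on the TMM log2 scale, and did not pass in the Tet1 IP (-0.62, SE 0.18, adjusted p = 0.0713). The Tet2dRBD call was lost without Tet2dRBD replicate 1 or 3 (adjusted p = 0.0621 and 0.0797). On the TPM scale its ratio was below 0 in all pairs but Tet2dRBD replicate 2 (0.03). The Cyb5b values on the TMM scale were -0.71 (SE 0.09) for Tet2 and -0.52 (SE 0.09) for Tet2dRBD.

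Among the enzymes that draw on cytochrome b5, all 3 sterol enzymes were lower in both the Tet2 and the Tet2dRBD IP. Sc4mol (now Msmo1), the methyl sterol monooxygenase, fell by 0.61 (SE 0.09, adjusted p = 0.000961) and by 0.51 (SE 0.09, adjusted p = 0.00516). Sc5d, the lathosterol desaturase, fell by 0.57 in each. Cyp51, the lanosterol demethylase, fell by 0.64 and 0.48, the latter near the threshold (adjusted p = 0.0492) and kept in 2 of 10 fits that left out a pair. Without Tet2dRBD replicate 3 the Sc5d call of that line was lost as well (adjusted p = 0.0621). On the TPM scale all 3 genes were below 0 in the mean of each line, and there the Tet2 fall of Sc4mol alone passed. In the Tet1 IP the 3 values lay between -0.62 and -0.48 and did not pass.

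The 10 tested enzymes of fatty acid and sphingolipid synthesis were mixed. Scd1 and Scd2, stearoyl-CoA desaturases, were lower in all 3 IPs. The log2 ratios of Scd1 were -0.85, -0.65 and -0.52 and those of Scd2 -0.76, -0.52 and -0.53 in the Tet1, Tet2 and Tet2dRBD IP. The Scd genes are close paralogs whose reads may be divided uncertainly. The Tet1 calls were lost without either Tet1 pair (adjusted p of 0.287 and 0.566 for Scd1, 0.342 and 0.591 for Scd2) and on the TPM scale (0.0575 for Scd1, 0.151 for Scd2). The Scd2 call was also lost for Tet1 without replicate 3 or 4 of the Tet2 or replicate 3 of the Tet2dRBD line, for Tet2 without Tet2 replicate 3 or 4, and for Tet2dRBD without its replicate 2 or 3. The Scd1 call for Tet2dRBD was lost without replicate 3 (adjusted p = 0.0557). Degs1, which makes the ceramide double bond, was lower in the Tet2 (-0.44, SE 0.10) and Tet2dRBD IP (-0.42, SE 0.10), the latter lost without Tet2dRBD replicate 3 (adjusted p = 0.0738). On the TPM scale the Tet2 and Tet2dRBD calls of Scd1, Scd2 and Degs1 were all lost as well (limma, adjusted p = 0.0628 to 0.384). Fads1 and Fads2, desaturases of polyunsaturated fatty acids, did not pass in any IP, with values from -0.44 to -0.01.

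Of the other users and donors, Cmah, which hydroxylates sialic acid and was the most abundant gene of the list (282.1 TPM), was lower in the Tet2 (-0.85, SE 0.21) and Tet2dRBD IP (-0.86, SE 0.20). These calls were lost without Tet2 replicate 1 (adjusted p = 0.0572) and without Tet2dRBD replicate 1 or 3 (0.0674 and 0.0643). Mosc2 (now Marc2), an amidoxime reductase, was just past the threshold in the Tet2 IP (-0.32, adjusted p = 0.0452), a call kept in 1 of 10 fits that left out a pair, and on the TPM scale its value was 0.00. Por, the reductase that feeds cytochromes P450 and can also reduce cytochrome b5, was higher in the Tet2 IP (0.51, SE 0.13, adjusted p = 0.0132), but not without Tet2 replicate 2 (adjusted p = 0.0574). Its values in the Tet2dRBD (0.35) and Tet1 IP (0.36) did not pass. The b5-like proteins Nenf, Pgrmc1 and Pgrmc2 did not pass in any IP, with values from -0.33 to 0.30, whereas on the TPM scale Nenf (0.37) and Pgrmc2 (0.47) passed as higher in the Tet2dRBD IP. The 12 list genes with a mean input under 10 TPM had 0.059 to 4.711 TPM. Among them Scd3 was lower and Scd4 higher in the Tet2 IP and Fads3 lower in the Tet2dRBD IP, named after their values were seen. The Fads3 call (adjusted p = 0.0459) was kept in 2 of 10 fits that left out a pair and in 0 of 6 other alternatives.

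**Figure D5:**
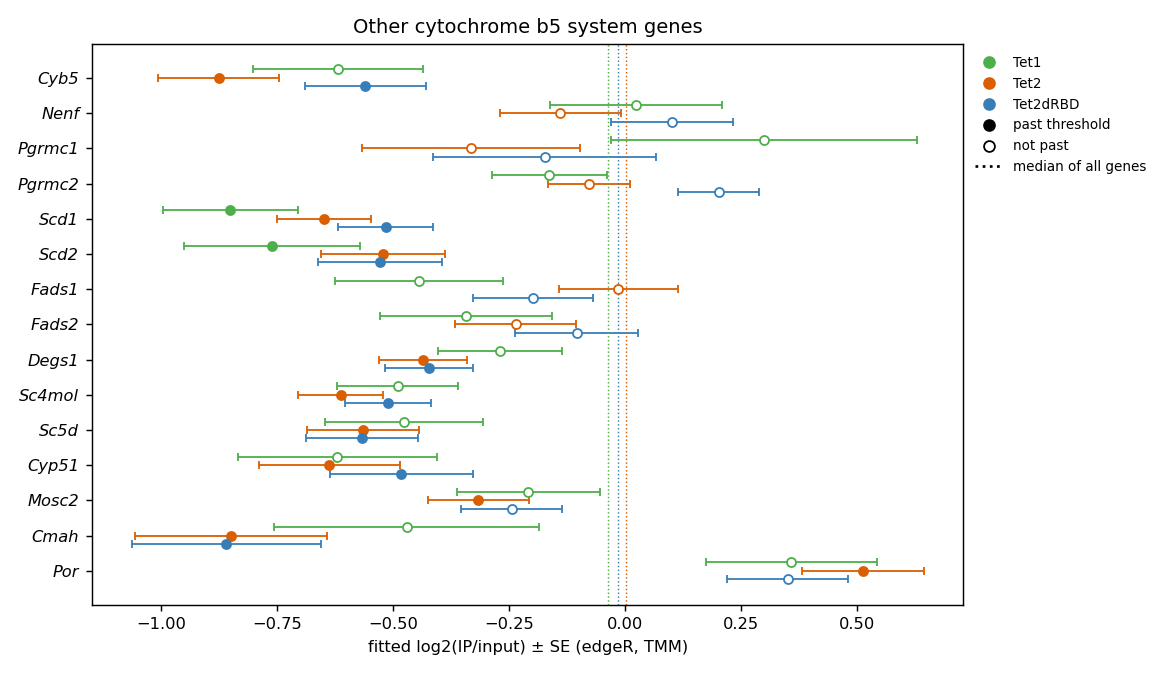
Fitted log2(IP/input) ± SE (edgeR, TMM scale) of the 15 further list genes with a mean input of at least 10 TPM, by line; filled symbols passed the threshold, and dotted lines are the medians over all tested genes. Sterol enzymes, Scd1, Scd2, Degs1, Cmah and Cyb5 lie left of the medians in every line, and Por lies to the right.

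For the Tet2 minus Tet2dRBD difference edgeR called 0 of the 25 list genes, and so did DESeq2. At an unadjusted p under 0.05 there were 2, Scd3 (-0.73, SE 0.25) and Pgrmc2 (-0.28, SE 0.12), both lower in the Tet2 line. All Tet2 ratios lay above all Tet2dRBD ratios for 1 list gene (Fads6, 2.816 TPM) and below them for 2 (Cyb5 and Scd3). The list median of the difference was -0.014 on the TMM log2 scale, against -0.005 over all genes, and the values ran from -0.73 to 1.00.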

How the data were processed

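RNA from anti-Flag immunoprecipitates of cytoplasmic extract and from input was sequenced in 20 libraries. The paper describes the input as total RNA from ESCs, so IP and input may also differ in RNA fraction, which was not tested. Per the labels, FastQC, Trimmomatic, Bowtie2 and RSEM were used with build mm9, without versions. The authors removed ribosomal and transfer RNA reads and counted RefSeq transcripts with RSEM. The deposited tables give expected counts, an FPKM column (not used here), a length and TPM to which the authors had added 1, which was subtracted here. Whether counting used strand is not given in the sources used here. IgG reactions were not analysed here. Groups and replicate numbers were read from the sample titles.

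Expected counts were rounded and fitted with edgeR 4.0.16 (quasi-likelihood, TMM, R 4.3.3) over all 20 libraries; the design held a term for each of the 10 pairs (the pairing block) and an IP effect per line, after requiring 1 CPM in 2 libraries (13710 genes, 7 residual degrees of freedom). Adjusted p-values are Benjamini-Hochberg over all genes, with a threshold of 0.05. Alternatives used limma 3.58.1 on log2(TPM + 1) and DESeq2 1.42.0. The scripts were tested on simulated data. Pairing follows from each IP having its own input: deviations of same-numbered IP and input libraries correlated at 0.601 to 0.865 (Tet2), 0.581 to 0.833 (Tet2dRBD) and 0.264 (Tet1). Differently numbered libraries of replicates 3 and 4, which share a set, correlated as highly (0.768 and 0.801 in Tet2, 0.607 and 0.727 in Tet2dRBD), so these correlations do not separate those numbers. Genes named are the 4 members, list genes with a mean input of at least 10 TPM, and the 5 genes most correlated with Cyb5r3. Members and lists were chosen with earlier results of these data known. Coordinates and sequences are from NCBIM37 (mm9) with GENCODE vM1, using the coding transcript closest in length to the deposited one: 13109 of 13710 tested genes matched. Estimated counts limit precision through counting error and through the division of reads among similar transcripts. For the 4 members, counting error is below the replicate spread in the Tet2 and Tet2dRBD lines.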

Additional observations from a re-analysis of the deposited data

Results flagged for a closer look

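Cyb5r3 stood out because its Tet2 and Tet2dRBD pairs went opposite ways throughout: the 4 Tet2 ratios were above 0, the 4 Tet2dRBD ratios below 0, and the mean difference was 1.63 on the log2 scale. The difference was not tested, since it is the contrast the gene was chosen on.

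In groups of 4 samples, 3 values stood far from the others of their group. They were the Cyb5r1 input of Tet2dRBD replicate 1 (96.68 TPM against 171.82 to 186.16 in the other 3), the Cyb5r1 log2 ratio of Tet2dRBD replicate 2 (-0.15, where the others were above 0) and the Cyb5r4 log2 ratio of Tet2 replicate 2 (0.54, where the others were below 0). Of 24 groups checked, chance alone would give 1.2, about 1 in 20. Replicates 1 and 2 each formed a library set of their own, and the part of the set in these values was not tested.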

How the results depend on the processing

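Calls across all genes depended on the pairing and on single pairs. Without the replicate block, edgeR called 0 genes for Tet1, 375 for Tet2, 46 for Tet2dRBD and 0 for the difference, against 809, 4540, 2674 and 3 with it, and 0, 1 and 0 list genes against 2, 12 and 9. With the Tet1 libraries left out and Tet2 and Tet2dRBD numbers also matched as a replicate block, the difference had 0. Leaving out 1 pair gave 0 to 1505 genes (0 to 6 of the list) for Tet1, 2690 to 5377 for Tet2 (10 to 11), 795 to 3419 for Tet2dRBD (1 to 10) and 0 to 14 for the difference. The Tet1 calls fell to 0 without Tet1 replicate 1 or 2, and Tet2dRBD had 795 genes and 1 list gene without Tet2dRBD replicate 3 and 1235 without Tet2dRBD replicate 1. DESeq2 called 1578 genes and 5 list genes for Tet1 and 29 for the difference. Without the filter the difference had 6. The Tet1 libraries alone gave 6982 genes and 14 list genes, and Cyb5r4 then passed (-0.16, adjusted p = 0.0301). Merging replicates 3 and 4, an alternative chosen after seeing the data, gave 194 and 965 genes for Tet1 and Tet2dRBD, 0 and 1 list genes, and 0 for the difference. With limma on TPM, 1 (pseudocount 1) or 0 (0.1) list genes passed for Tet1 and 5 with either for Tet2dRBD. There 81.2% of the Tet2 calls were higher, against 44.2% with TMM (83.7% against 37.9% for Tet2dRBD, 77.4% against 46.1% for Tet1).

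The Cyb5b call in the Tet1 line was lost without the block (-0.71), with replicates 3 and 4 merged (-0.67, adjusted p = 0.0574) and without either Tet1 pair (-0.78 to -0.65). The Cyb5r1 value turned to 0.038 with either pseudocount on the TPM scale, and the Mosc2 value for Tet2 to 0.001. For Cyb5r3, TMM scaling moved the Tet1 ratio to -0.16 and the Tet2dRBD ratio to -0.57, and centring on the median ratio moved the latter to -0.50. Its difference was 1.57 to 1.69 under other scales and pseudocounts and 1.38 to 1.73 without 1 replicate. The 23 list gene calls were refitted 370 times in all, and in 113 of these refits the call was lost with its direction kept. In 2 the value reversed, both for Mosc2. The cause was not tested. The Tet1 line had 2 pairs, and no alternative varied depth.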
